A study of Mus musculus with 26 samples.

Results

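The comparison set the response of tumour endothelial cells to interferon-gamma (IFNγ) delivered by transferred T cells against their response to IFNγ released by tumour cells. It was formed as a difference of differences: 16.113 tumours treated with IFNγ-competent T cells minus those treated with IFNγ-deficient T cells, and from this the J558L tumours at 24 h minus those at 0 h. These 4 groups hold 13 of the 26 arrays of the series, which comprises endothelial cells positive for CD31 and CD146, sorted from digested tumours or kidneys and hybridised to Affymetrix arrays. The series' design text gives the purpose as finding out whether IFNγ from T cells acts like the cytokine made ectopically by tumours.

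The mice of all 4 groups were female and Rag-/-, so the hosts had no mature T or B cells of their own, and the receptor for IFNγ was present on all host cells. J558L, a mouse plasmacytoma line, carried an inducible IFNγ fused to green fluorescent protein. Its tumours were taken without induction (0 h, 2 arrays) or 24 h after it (3 arrays), from mice of 4 to 6 months. The 16.113 tumours were taken 120 h after transfer of tumour-specific T cells, which were either able to make IFNγ (3 arrays) or IFNγ-/- (5 arrays), from mice of 3 to 4 months. T cells had thus been given to both 16.113 groups, whereas neither J558L group received any. Tumour, source and form of the cytokine, time, kind of control and age all differ between the arms, as may the normalization of the arrays, and their parts in a difference of responses cannot be told apart. The labels do not say whether each array came from its own mouse, so the p-values measure only the spread between these arrays.

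IFNγ binds a receptor on the cell surface, and signalling from it reaches gamma-activated sequences in promoters. Among the first genes induced is Irf1, itself a transcription factor that acts on interferon-stimulated response elements, so that the response runs in waves. Endothelial cells answer with GTPases and DNA sensors of cell-autonomous defence, antigen presentation and adhesion molecules, and IFNγ is known to slow their division and to act on tumour vessels.

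The promoters of 4 genes are shown because these genes passed the test in both responses and had the most unequal changes among those with a promoter in the table: Serpina3f and Mndal changed more with T cell IFNγ, Ifi205 and Irf4 more with tumour-cell IFNγ. They were chosen after their values were seen. Each sequence is the 250 bases before the first start site listed by RefSeq (GRCm38.p6), 5′ to 3′ on the gene's strand, in lower case with matches to TTCNNNGAA (the gamma-activated sequence) or GAAA-NN-GAAA (the interferon-stimulated response element), on either strand, in capitals.
Serpina3f, chr12:104214294-104214543, plus strand: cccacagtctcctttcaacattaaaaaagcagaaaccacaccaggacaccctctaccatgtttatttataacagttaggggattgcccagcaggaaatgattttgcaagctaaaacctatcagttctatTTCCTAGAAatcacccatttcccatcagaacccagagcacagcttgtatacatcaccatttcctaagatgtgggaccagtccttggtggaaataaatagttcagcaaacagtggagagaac
Mndal, chr1:173880188-173880437, minus strand: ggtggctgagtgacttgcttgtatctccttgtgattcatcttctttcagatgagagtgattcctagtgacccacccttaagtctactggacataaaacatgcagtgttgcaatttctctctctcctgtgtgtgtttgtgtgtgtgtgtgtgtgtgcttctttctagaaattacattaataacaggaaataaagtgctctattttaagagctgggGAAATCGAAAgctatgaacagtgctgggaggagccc
Ifi205, chr1:174031756-174032005, minus strand: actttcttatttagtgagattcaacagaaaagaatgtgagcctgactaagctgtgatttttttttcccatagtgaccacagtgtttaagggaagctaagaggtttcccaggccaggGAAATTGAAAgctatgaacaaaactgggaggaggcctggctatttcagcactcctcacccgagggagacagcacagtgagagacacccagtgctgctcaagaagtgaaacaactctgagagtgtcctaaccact
Irf4, chr13:30748983-30749232, plus strand: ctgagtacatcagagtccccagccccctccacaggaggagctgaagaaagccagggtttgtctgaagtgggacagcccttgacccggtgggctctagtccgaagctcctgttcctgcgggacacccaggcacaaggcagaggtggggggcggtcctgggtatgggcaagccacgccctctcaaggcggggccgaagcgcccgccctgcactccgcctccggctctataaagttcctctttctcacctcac
Serpina3f held 1 gamma-activated sequence and no response element, Mndal and Ifi205 held 1 response element each, and Irf4 held neither motif in this window. Of the 29 genes that rose in both responses 27 had a promoter in the table, and 9 of these (33.3%) held the response element, against 2.85% of the 3574 tested genes with a promoter and 3.04% of all 27025. The gamma-activated sequence was found in 1 of the 27 (3.7%), against 5.93% of the tested genes. Of 22 promoters of genes that fell in both, none held the response element and 2 (9.09%) the gamma-activated sequence. A match is a description of these letters and not a site in use. The 29 genes that rose in both include 5 of the Ifi200 family, and the promoters of Mndal and Ifi205 have matching letters beside the element. The promoters are thus not independent of each other.

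Of 65535 probe sets in the deposited tables, single-symbol ones gave 4386 tested genes, of which 4361 lie on chromosomes 1, 10, 11, 12 and 13, so that counts refer to these genes and not to the whole genome. No gene of the 4386 differed between the responses past an adjusted p of 0.05 in limma (percent called 0), and the smallest adjusted p was 0.115. At an unadjusted p under 0.05 there were 321 genes (7.32%), of which 109 (2.49%) had a more positive and 212 (4.83%) a more negative change with T cell IFNγ. A threshold of 0.05 alone gives 219.3 of 4386 genes where nothing differs. The main candidates among interferon genes were Igtp, Wars, Irf1 and Serpina3f on the T cell side, and Ifi205, Slamf8, Irf4 and Tnfsf18 on the J558L side. The count rested on the arrays included. Without IFNγ-competent replicate 1 it was 24 (0.547%), all with a lower change in the T cell arm, and without IFNγ-competent replicate 2 it was 1 (Nppc). With a spread estimated from the 13 arrays alone, 2 genes passed, Igtp and Serpina3f, both at an adjusted p of 0.0277.

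The precision sets what a count of 0 can mean. At the median standard error of 0.27 for a difference, the 95% interval reached 0.56 log2 units to either side, and a single gene needed a difference of 1.52 (2.87-fold) to be called. The arms were also not equally even: the median SD of a gene was 0.25 and 0.214 among IFNγ-competent and IFNγ-deficient arrays, and 0.148 and 0.127 at 24 h and 0 h in J558L. Arrays of the IFNγ-competent group correlated with each other at 0.936 to 0.954, those of the other groups at 0.967 to 0.989. All 26 arrays shared 1 estimate of the spread.

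Nearly all genes called with tumour-cell IFNγ had a change of the same sign with T cell IFNγ. The counts of the arms are not a ranking, since 8 arrays entered the T cell response and 5 the J558L response, with median standard errors of 0.169 and 0.211. In the T cell response 410 genes (9.35%) were called, 126 higher (2.87%) and 284 lower (6.48%). In the J558L response 93 (2.12%) were called, 48 higher (1.09%) and 45 lower (1.03%). Of these, 59 passed in both, 29 higher and 30 lower in each, which is 14.4% of the T cell calls and 63.4% of the J558L calls. Of the 93 J558L genes 92 had the same sign in the T cell response. The exception was Alox15, a lipoxygenase, at -0.07 with T cells and 0.81 in J558L. In the other direction the agreement was lower: of the 410 T cell genes 335 (81.7%) had the same sign in J558L. The same-sign share over all genes was not counted. No gene passed in opposite directions. Across the 4386 genes, which are not independent replicates, the changes correlated at r = 0.54 (Spearman's rho = 0.38), with no arrays shared between the arms.

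Each of these counts depended on few arrays. Leaving out 1 array at a time, the T cell response had 222 (without IFNγ-competent replicate 3) to 565 calls (without IFNγ-competent replicate 1), and the J558L response 9 (without 0 h replicate 1) to 51. With array weights the counts were 149 and 279, and with each comparison's own arrays 145 and 173, so the order of the 2 counts turned. The split of the T cell calls also moved with the scaling: 189 were higher and 244 lower after quantile normalization of all arrays, and 248 and 162 after centring each array on the median of its tested genes, which shifted the median T cell change from -0.02 to 0.13. Under both scalings no difference of responses reversed among 87 genes followed through all settings.

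Gene by gene, 138 T cell calls (59 higher, 79 lower) and 7 J558L calls were kept whichever array of their own comparison was left out. The 7 were Ifi205, Ifi207, Irf4, Slamf8, Sp140 and Zup1, which rose, and Fbxo5, which fell. The first 6 are also the genes whose calls were kept in both responses. All other J558L calls named below were lost without at least 1 J558L array. The plot of both responses sets these genes against the rest.

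**Figure D1:**
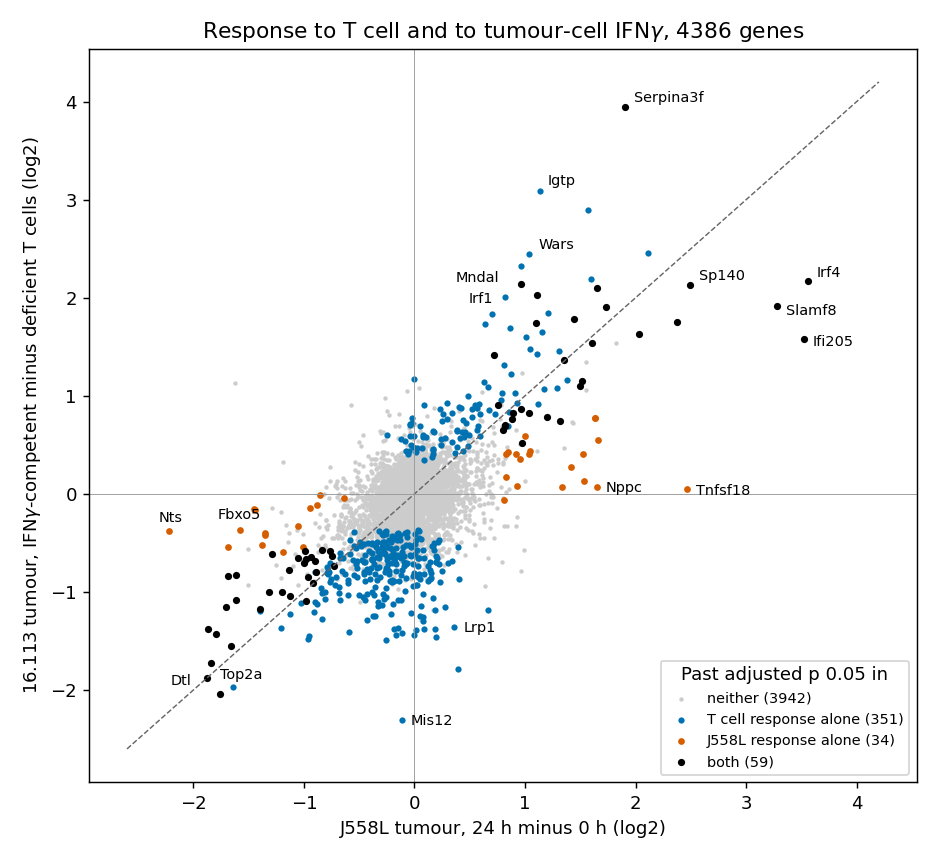
Log2 change of each of the 4386 genes in J558L tumours (24 h minus 0 h, horizontal) and 16.113 tumours (IFNγ-competent minus IFNγ-deficient T cells, vertical), with points coloured by the responses in which they passed an adjusted p of 0.05 and the dashed line marking equal changes. Igtp and Serpina3f lie above the line, Irf4, Slamf8 and Ifi205 below it, and Tnfsf18 and Nppc near 0 on the vertical axis.

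The immunity-related GTPases, IFNγ-induced proteins that attack the vacuoles of intracellular pathogens, had larger changes with T cell IFNγ. Of 10 listed 7 were measured, and all 7 rose in the T cell response while 2, Irgm1 and Gm5431, passed in J558L. Their difference of responses had a median of 1.13 against -0.01 over all genes, 6 of 7 were above 0, and 5 had an unadjusted p under 0.05. None passed after adjustment. The list was drawn up with earlier results of these data known.

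Igtp read 10.65, 10.70 and 10.73 log2 units with IFNγ-competent T cells, against 7.30, 7.82, 7.55, 7.25 and 8.09 with deficient ones. In J558L it read 11.80, 11.49 and 11.85 at 24 h and 10.57 and 10.58 at 0 h. The groups did not overlap in either arm, and the 3 competent arrays were nearly level. In groups this small, groups can be apart where nothing differs, and the share of all genes without overlap was not counted. Overlap is therefore given here and below only to describe the values. Igtp rose by 3.09 ± 0.30 (SE, adjusted p = 7.82e-07), or 8.52-fold, with T cells, whereas the change in J558L was 1.14 ± 0.37 (adjusted p = 0.146). The difference was 1.96 with a 95% interval of 0.96 to 2.95 (adjusted p = 0.208). Without IFNγ-competent replicate 1 it was 1.98 (adjusted p = 0.0936).

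The other members followed the same order except for Gm5431. Irgm2 had a difference of 1.36 (0.49 to 2.23), Gm12250 of 1.32 (0.02 to 2.62), Ifi47 of 1.13 (0.45 to 1.81), Irgm1 of 0.92 (0.17 to 1.67) and 9930111J21Rik2 of 0.83 (-0.41 to 2.08). Gm5431, at -0.40 (-1.61 to 0.80), had changed by 1.63 and 2.03. Near-identical members of this family may share probe sequence, so single members are uncertain.

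The control levels of these GTPases differed in rank within their arrays. Their mean stood 1.12 to 1.63 log2 units above the array's median in the 5 IFNγ-deficient arrays and 3.06 to 3.20 above it in the 2 uninduced J558L arrays. With IFNγ it stood 3.57 to 3.83 above in the competent and 4.26 to 4.41 above in the 24 h arrays. For Igtp the control values were 1.46 to 2.37 and 4.12 to 4.13, and the values with IFNγ 4.88 to 5.10 and 5.06 to 5.43. Separate normalization of the sets was inferred from their values, so these are given as positions within arrays and not a comparison of levels between tumours. The control means are terms of the difference of responses, so their order and the difference are linked by arithmetic. The part of the control level in the difference was not tested.

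**Figure D2:**
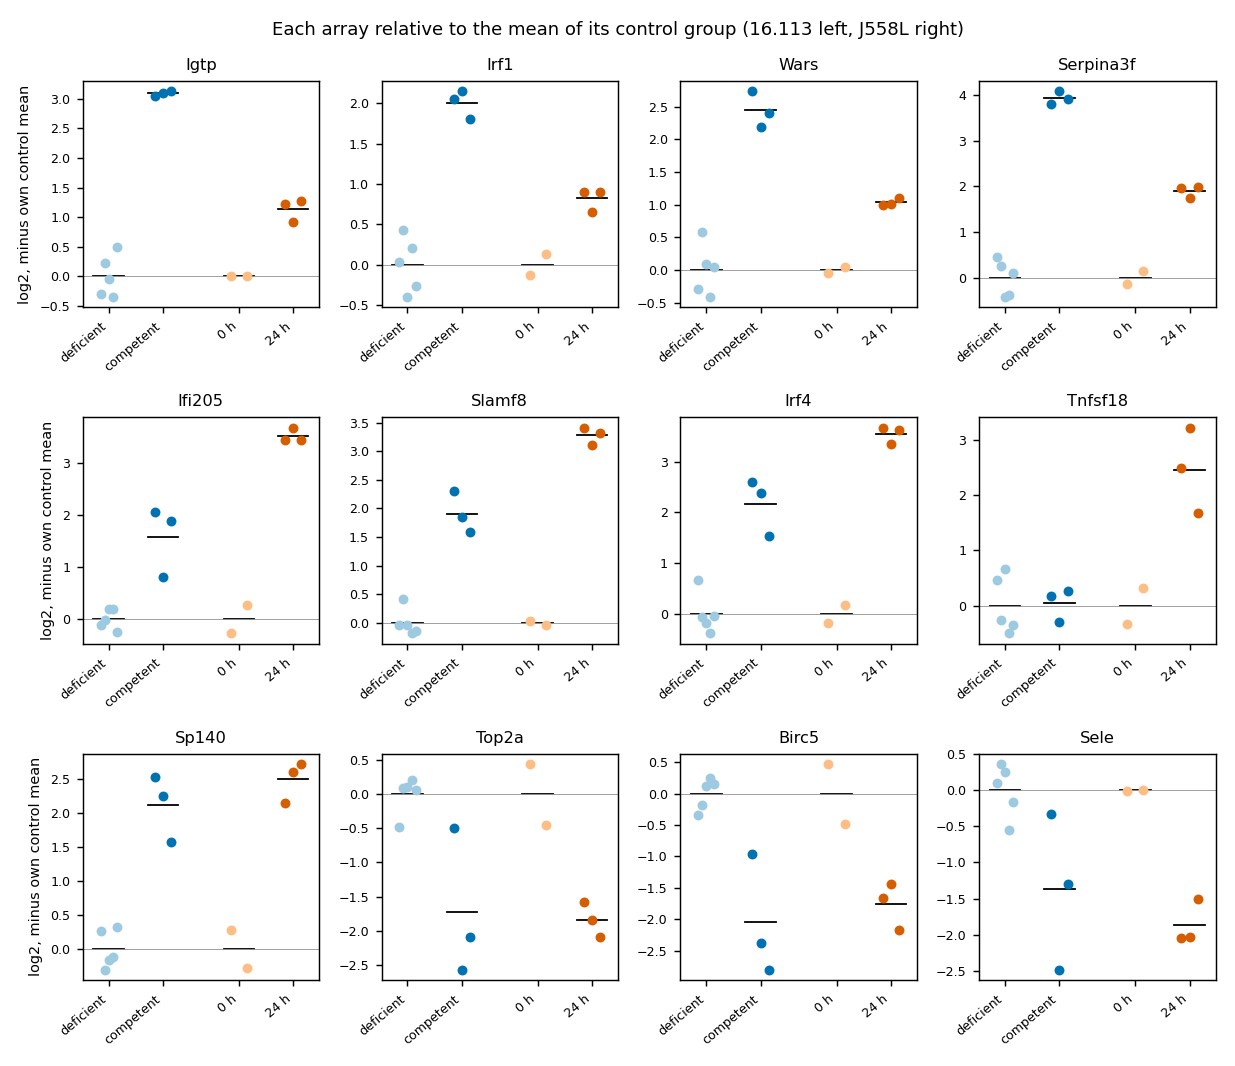
Log2 value of each array minus the mean of its own control group, for 12 genes, with blue points for 16.113 (light, IFNγ-deficient T cells, n = 5; dark, IFNγ-competent, n = 3), orange points for J558L (light, 0 h, n = 2; dark, 24 h, n = 3) and bars at group means. Igtp, Irf1, Wars and Serpina3f stand higher over their controls in 16.113, the second row stands higher in J558L, and IFNγ-competent replicate 1, the leftmost dark blue point, stays above the other 2 in Top2a, Birc5 and Sele.

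Irf1, the transcription factor of the second wave, had the same order. It read 9.88, 9.97 and 9.63 with competent and 7.85, 8.25, 7.42, 8.03 and 7.56 with deficient T cells, and 10.70, 10.45 and 10.70 at 24 h against 9.67 and 9.92 at 0 h. The groups of each arm were apart. Irf1 rose 4.01-fold with T cells (log2 SE 0.21, adjusted p = 1.69e-06), and its J558L change was 0.82 ± 0.26 (adjusted p = 0.119). The difference was 1.18 (95% interval 0.50 to 1.87, adjusted p = 0.287).

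Wars, the tryptophanyl-tRNA synthetase that IFNγ induces, read 11.26, 10.71 and 10.93 against 8.23, 9.10, 8.61, 8.11 and 8.57 with T cells. In J558L it read 12.37, 12.39 and 12.47 at 24 h against 11.33 and 11.42 at 0 h. Neither arm overlapped. Wars rose by 2.44 ± 0.23 (adjusted p = 6.86e-07) with T cells and changed by 1.04 ± 0.28 (adjusted p = 0.0575) in J558L, a difference of 1.41 (0.65 to 2.16, adjusted p = 0.265).

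Among receptor and signalling genes of the pathway, 11 of 15 listed were measured, 4 rose with T cells and 2 in J558L, and their median difference was 0.03. Ifngr1, the ligand-binding chain of the receptor, changed by -0.53 and -0.21, neither past the test. Stat2 rose by 1.14 with T cells and changed by 0.63 in J558L, and Stat5b rose by 0.90 and 0.75. Stat3 and the feedback inhibitor Socs3 had differences of 0.03 and -0.17. The transcript of Ifng itself was low, at 3.44 to 4.76 in the competent and 3.51 to 4.15 in the deficient arrays, below the array medians.

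Serpina3f, a serine protease inhibitor and the gene with the largest T cell change, read 9.98, 10.26 and 10.10 with competent against 6.63, 6.44, 5.75, 5.79 and 6.27 with deficient T cells. In J558L it read 11.07, 10.85 and 11.08 against 8.96 and 9.24. All arrays with IFNγ lay above their controls. It rose by 3.94 ± 0.38 (15.3-fold, adjusted p = 7.82e-07) with T cells and by 1.90 ± 0.48 (3.73-fold, adjusted p = 0.0371) in J558L, a call that was lost without any 1 of the 5 J558L arrays. The difference of 2.04 (0.77 to 3.31) had an adjusted p of 0.357. Its neighbour Serpina3g had changes of 2.46 and 2.11 and a difference of 0.35 (-1.14 to 1.84). Of the 10 measured genes of this cluster 2 rose with T cells and 1 in J558L, and the close similarity of its members makes single ones uncertain.

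The Ifi200 family, DNA-binding proteins that include the cytosolic DNA sensor Aim2, split both ways. Of 12 measured 8 rose and 2 fell with T cells and 5 rose in J558L, all 5 among those that rose with T cells. Differences ran from -1.94 for Ifi205 to 1.18 for Mndal with a median of -0.21. Ifi205 read 10.88, 9.63 and 10.70 against 8.70, 8.80, 9.01, 9.01 and 8.58 with T cells, and 10.31, 10.54 and 10.30 against 6.59 and 7.13 in J558L. The groups did not overlap. Ifi205 rose by 1.58 ± 0.35 (2.99-fold, adjusted p = 0.00604) and by 3.52 ± 0.44 (11.5-fold, adjusted p = 9.16e-05), a difference of -1.94 (-3.12 to -0.77, adjusted p = 0.337).

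For Ifi205 the order of control levels was the reverse of that of the GTPases. It stood 2.86 to 3.26 log2 units above the median of the IFNγ-deficient arrays and 0.15 to 0.67 above that of the 0 h arrays. Mndal, from the same gene cluster, had the order of the GTPases, at 1.41 to 2.17 and 3.13 to 3.21 above them. Both genes were named for the size of their difference, which contains the control means, so these orders are not a separate result. Mndal rose by 2.14 with T cells (adjusted p = 6.86e-07) and by 0.96 in J558L (adjusted p = 0.0412, lost without any 1 J558L array), a difference of 1.18 (0.52 to 1.84, adjusted p = 0.271). Ifi207, with changes of 1.75 and 2.38, and Ifi203, with 2.10 and 1.65, had intervals of the difference that span 0. Aim2 fell by 0.85 with T cells, a call lost without IFNγ-competent replicate 2 or 3, and changed by 0.15 in J558L.

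Irf4, a transcription factor best known in lymphocytes, read 6.91, 6.69 and 5.84 with competent against 4.98, 4.24, 4.13, 3.92 and 4.26 with deficient T cells, and 8.45, 8.13 and 8.41 at 24 h against 4.60 and 4.95 at 0 h. Both arms were without overlap. It rose by 2.17 ± 0.30 (adjusted p = 8.4e-05) and by 3.56 ± 0.38 (adjusted p = 8.04e-06), with a difference of -1.38 (-2.39 to -0.38, adjusted p = 0.426). The brightest of its 11 probe sets gave a difference of -0.39. Its control groups lay below the array medians, so the size of its folds is uncertain. Irf4 is also in the list of plasma and B cell markers, and J558L itself is a plasmacytoma line. Of 12 measured 1 rose (Irf4) and 1 fell (Sdc1) with T cells, and 2 (Irf4 and Cd79b) rose in J558L. The median difference was -0.01, and 4 had an unadjusted p under 0.05, 3 of them below 0. The list mean was 6.38 to 6.45 at 24 h against 5.98 to 6.03 at 0 h in J558L. It was 5.62 to 5.63 with competent against 5.28 to 5.47 with deficient T cells. These means include Irf4 itself, the member with the largest rise in each arm, and were not computed without it. In J558L 8 of the 12 had a change above 0 and 4 below, with a median of 0.09. Among them the immunoglobulin gene Ighm and the plasma cell regulator Xbp1 changed by -0.01 and 0.08, neither past the test. The part of plasma cell RNA in these values was not tested.

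Slamf8, a receptor of the SLAM family, read 8.01, 7.55 and 7.29 against 5.67, 6.12, 5.66, 5.52 and 5.56 with T cells, and 10.33, 10.03 and 10.23 against 6.95 and 6.88 in J558L. All arrays with IFNγ exceeded their controls. Slamf8 rose by 1.91 ± 0.27 (adjusted p = 8.4e-05) and by 3.28 ± 0.33 (adjusted p = 6.58e-06), a difference of -1.37 (-2.25 to -0.48, adjusted p = 0.361). By its brightest probe set alone the T cell change was 0.42 and did not pass (adjusted p = 0.428), although all 7 probe sets rose.

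Sp140, a chromatin reader of nuclear bodies, rose in both arms. It read 7.40, 7.12 and 6.44 against 5.13, 4.56, 4.70, 4.74 and 5.19 with T cells, and 7.82, 8.27 and 8.39 against 5.94 and 5.39 in J558L, with no overlap. The rises were 2.13 ± 0.30 and 2.49 ± 0.38, and the difference was -0.37 with an interval of -1.36 to 0.63. The control groups of Sp140 lay below the array medians in both arms, so the sizes of its rises are uncertain. Zup1, a deubiquitinase, read 7.94, 7.49 and 7.58 against 6.66, 6.46, 6.03, 6.78 and 6.68, and 8.91, 8.84 and 9.27 against 7.46 and 7.54. It rose by 1.15 and 1.51, a difference of -0.36 (-0.93 to 0.20). Both intervals span 0 and neither shows that the arms act alike. Zup1 was named after its values were seen.

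Antiviral genes typical of type I interferon had small changes. Of 12 measured 8 rose and 1 fell with T cells, 2 rose and 1 fell in J558L, and none had an unadjusted p under 0.05 for the difference. Rsad2, which blocks virus release, rose by 0.82 and 1.04, and Cmpk2, its neighbour, rose by 0.65 with T cells and changed by 0.57 in J558L. Ifi27 fell in both arms, by 0.69 and 0.90. Of 9 Schlafen genes measured 3 rose with T cells and none in J558L, with a median difference of 0.18.

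Some genes rose in J558L and showed no change past the test with T cells. Tnfsf18, the endothelial ligand of the T cell receptor GITR, read 7.37, 8.11 and 6.57 at 24 h against 4.56 and 5.21 at 0 h, and 4.08, 3.62 and 4.18 with competent against 4.37, 3.65, 4.57, 3.41 and 3.56 with deficient T cells. The J558L groups were apart and the 16.113 groups overlapped throughout, below the array medians. Tnfsf18 rose by 2.47 ± 0.47 in J558L (adjusted p = 0.00576, lost without 0 h replicate 1) and its T cell change was 0.05 ± 0.37 (adjusted p = 0.967), a difference of -2.42 (-3.66 to -1.18, adjusted p = 0.208).

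Nppc, which encodes the vasodilating C-type natriuretic peptide, read 8.10, 8.14 and 8.04 at 24 h against 6.14 and 6.75 at 0 h, and 5.95, 6.37 and 5.47 against 5.77, 6.06, 5.48, 6.07 and 5.91 with T cells. Only the J558L arm separated. Nppc rose by 1.65 ± 0.25 in J558L (adjusted p = 0.000595, lost without 0 h replicate 1) and changed by 0.07 with T cells, a difference of -1.58 (-2.23 to -0.92, adjusted p = 0.115). Its brightest of 4 probe sets gave a difference of 0.33. Trappc10, a subunit of a vesicle-tethering complex, had a difference of -1.26 (-1.83 to -0.70), and Il18rap, a chain of the interleukin-18 receptor, one of -1.13 (-2.04 to -0.21).

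Protease inhibitors of the Serpinb family leaned to J558L: 9 of 10 measured differences were below 0, against 2259 of all 4386, with a median of -0.65. Most of the 10 were low. On every array of the group, 9 lay below the array median at 0 h, 8 at 24 h, 7 with competent and 6 with deficient T cells. The sizes of their changes are therefore uncertain. Serpinb9, the inhibitor of granzyme B, rose in both arms, by 1.10 with T cells and 1.5 in J558L. Serpinb6b rose by 1.66 in J558L and changed by 0.55 with T cells. Serpinb2 and Serpinb5 fell by 1.30 and 0.94 with T cells and changed by 0.08 and -0.02 in J558L, so the list mixes a higher J558L change with a lower T cell change.

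**Figure D3:**
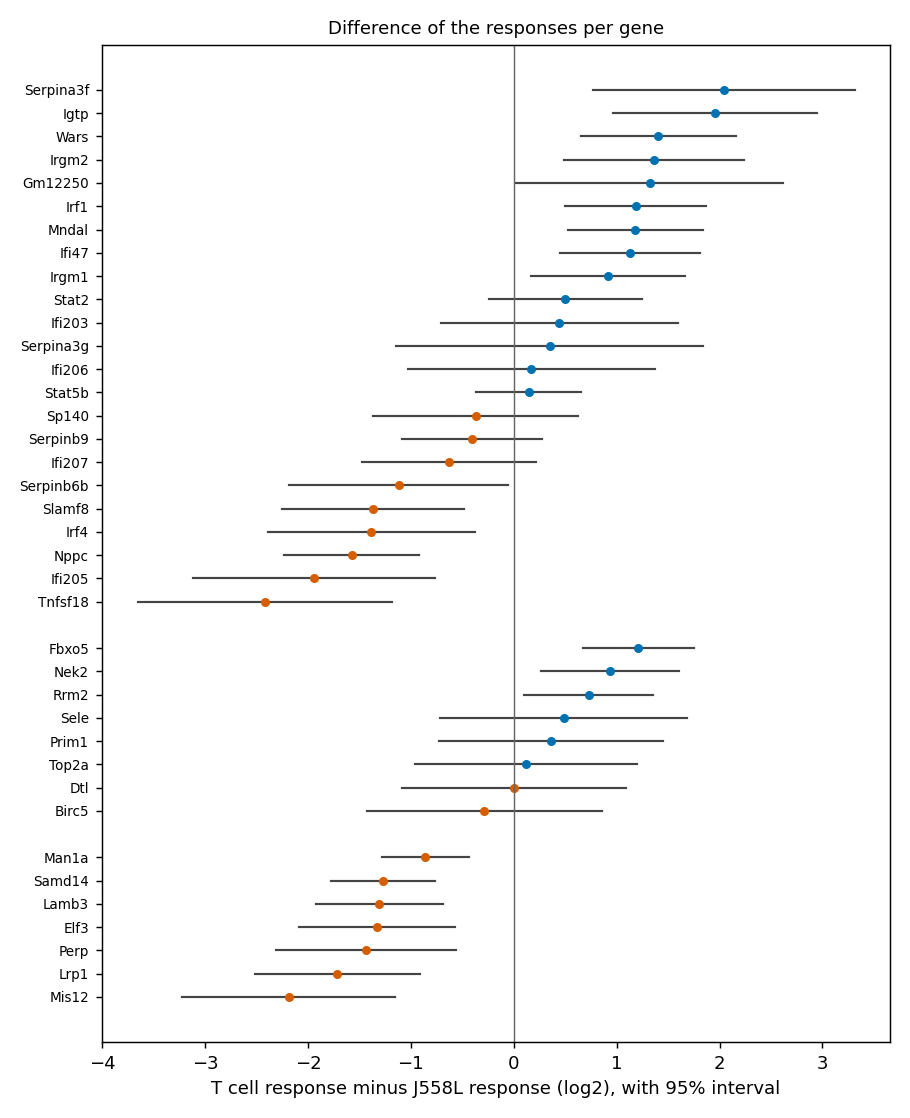
Difference of responses (T cell minus J558L, log2) with its 95% interval for interferon-related and other risen genes (top block), proliferation genes and Sele (middle) and genes that fell with T cells alone (bottom), with blue points above and orange points at or below 0. No gene passed an adjusted p of 0.05, and intervals for Sp140, Stat5b, Top2a and Dtl span 0.

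Many genes of cell division read lower with IFNγ in both arms, and the numbers called do not rank the arms. Of 21 measured genes of DNA replication 10 fell with T cells and 7 in J558L, 5 of them in both. Their median changes were -0.76 and -0.85, with 20 and 19 genes below 0, and the median difference was 0.00. Of 19 genes of mitosis 11 fell with T cells and 6 in J558L, 5 in both. Their median changes were -0.80 and -0.87, with 17 genes below 0 in each arm, and the median difference was 0.12. The J558L counts rested on 1 of the 2 control arrays: without 0 h replicate 1, only 2 of all tested genes fell in J558L and 0 in both responses. Top2a, the topoisomerase of dividing cells, read 7.30, 5.22 and 5.69 with competent against 7.31, 7.88, 7.90, 8.0 and 7.85 with deficient T cells, and 6.95, 6.69 and 6.45 at 24 h against 8.98 and 8.09 at 0 h. IFNγ-competent replicate 1 lay at the lowest deficient array, and the other 2 lay well below. Top2a fell by 1.72 ± 0.33 (adjusted p = 0.00181) and by 1.84 ± 0.41 (adjusted p = 0.0163), a difference of 0.12 (-0.96 to 1.19). Without that replicate its T cell change was -2.34 and the difference -0.50.

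Dtl, an adaptor of the ubiquitin ligase that acts in S phase, read 6.25, 4.78 and 4.37 against 6.91, 7.46, 7.27, 6.69 and 6.72, and 5.87, 6.10 and 6.13 against 8.25 and 7.57. The groups did not overlap. It fell by 1.88 in each arm, a difference of 0.00 with an interval of -1.09 to 1.09. Birc5, the mitotic protein survivin, fell by 2.04 and 1.76. The J558L calls of all 3 genes were lost without 0 h replicate 1, whose mean over the mitosis list was 7.39 against 6.86 in replicate 2.

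Fbxo5, which holds back the anaphase-promoting complex, fell in J558L, and its T cell change did not pass. It read 5.37, 5.46 and 5.20 at 24 h against 6.94 and 6.91 at 0 h, and 6.67, 6.16 and 6.23 against 6.61, 6.62, 6.92, 6.83 and 6.63 with T cells. The 16.113 groups touched through IFNγ-competent replicate 1. Fbxo5 fell by 1.58 ± 0.20 in J558L (adjusted p = 0.000105) and changed by -0.37 ± 0.16 with T cells (adjusted p = 0.178), a difference of 1.21 (0.67 to 1.75, adjusted p = 0.138). Nek2 and Rrm2 had differences of 0.94 (0.26 to 1.61) and 0.73 (0.10 to 1.35) of the same kind.

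Sele, the endothelial adhesion molecule E-selectin, read 9.52, 7.37 and 8.55 with competent against 9.95, 10.22, 10.11, 9.30 and 9.69 with deficient T cells, and 8.07, 8.08 and 8.61 against 10.11 and 10.13 in J558L. One competent array, replicate 1, lay within the range of the deficient ones, and the J558L groups were apart. Sele fell by 1.38 ± 0.36 (adjusted p = 0.0171) and by 1.86 ± 0.45 (adjusted p = 0.0277), a difference of 0.49 (-0.71 to 1.68). The T cell call was lost without IFNγ-competent replicate 2 or 3 and the J558L call without any 1 J558L array. Of 18 chemokine and chemokine receptor genes measured 1 rose and 1 fell with T cells and none passed in J558L. Of 19 endothelial genes 1 fell with T cells, and Pecam1, which encodes CD31, had changes of -0.14 and -0.17 and a difference of 0.03 (-0.34 to 0.40).

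Of the 212 genes with a lower difference at an unadjusted p under 0.05, 95 fell in the T cell response and 15 rose in J558L. Of all 321, 168 passed in neither response. Mis12, a kinetochore protein, read 5.24, 3.80 and 3.98 with competent against 6.08, 6.27, 6.82, 6.61 and 7.43 with deficient T cells, and 7.06, 6.90 and 7.52 against 7.45 and 7.10. The 16.113 groups were apart and the J558L groups overlapped. It fell by 2.30 ± 0.31 (adjusted p = 6.78e-05) with T cells and changed by -0.12 ± 0.39 in J558L, a difference of -2.19 (-3.22 to -1.15, adjusted p = 0.15).

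Lrp1, an endocytic receptor read by 78 probe sets, fell by 1.35 with T cells and changed by 0.36 in J558L, a difference of -1.72 (-2.52 to -0.91, adjusted p = 0.15), with 72 probe sets of the same sign. Lamb3, a laminin chain of epithelial basement membrane, fell by 1.42 and changed by -0.12. Man1a, a mannosidase that trims N-glycans, fell by 0.82 and changed by 0.04. Samd14 had the smallest adjusted p of the comparison, shared with Nppc: it fell by 0.87 with T cells, changed by 0.41 in J558L, and differed by -1.27 (-1.78 to -0.77, adjusted p = 0.115).

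Some markers of epithelial cells were among the genes that fell with T cells. Of 15 measured 5 (Dsp, Elf3, Krt19, Lad1 and Perp) fell with T cells, none rose, and 1 (Krt20) fell in J558L. The mean over the list was 5.50 to 5.67 in the deficient and 5.05 to 5.20 in the competent arrays. Within J558L it was 5.20 to 5.28 at 0 h and 5.05 to 5.14 at 24 h. Krt10, Krt12, Krt13, Krt15, Krt16, Krt23, Cldn7 and Grhl1 had no T cell change past the test, and Krt14 changed by -0.84 (adjusted p = 0.0589). Perp, a desmosomal protein, read 6.63, 5.13 and 5.14 with competent against 6.67, 7.10, 7.41, 7.32 and 6.86 with deficient T cells, and 4.89, 4.87 and 4.76 against 4.69 and 4.99 in J558L. Competent replicate 1 lay beside the deficient arrays, and the J558L arrays lay below their array medians. Perp fell by 1.44 ± 0.26 (adjusted p = 0.00133) with T cells and differed by -1.44 (-2.31 to -0.57, adjusted p = 0.337). The part of epithelial RNA in the difference of responses was not tested, and in sorted bulk samples fewer cells of a type and less RNA per cell cannot be told apart.

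The 24 genes called without IFNγ-competent replicate 1 were mostly genes that fell with T cells and changed little in J558L. With that array left out, 21 of them fell with T cells and 20 had a J558L change between -0.5 and 0.5. They include the epithelial genes Perp (-1.94, adjusted p = 0.00721), Krt19 (-1.21, adjusted p = 0.00934), the epithelial transcription factor Foxa1 (-1.42) and the receptor Erbb3 (-1.69), as well as Mis12 (-2.64), Lrp1 (-1.97), Lamb3 (-1.5) and Samd14 (-1.38). Nppc, Trappc10 and Aftph are the ones among the 24 outside these 21. None of the 24 is in the lists of GTPases, Ifi200 genes, signalling genes or antiviral genes, and only Perp and Krt19 are in the epithelial list. The replicate that was left out also had the highest mean over T and NK cell markers among the 16.113 arrays, 5.45 against 4.87 and 4.97 in the other competent and 4.64 to 4.91 in the deficient arrays. Of the 22 markers 3 (Tcf7, Ikzf3 and Il18r1) rose with T cells, 18 had a change above 0, the median change was 0.35, and 14 were below the median of every competent array. In J558L 1 of the 22, Il18rap, rose. The part of T cell RNA in the difference was not tested. Its mitosis mean was 6.05 against 5.31 and 5.42.

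**Figure D4:**
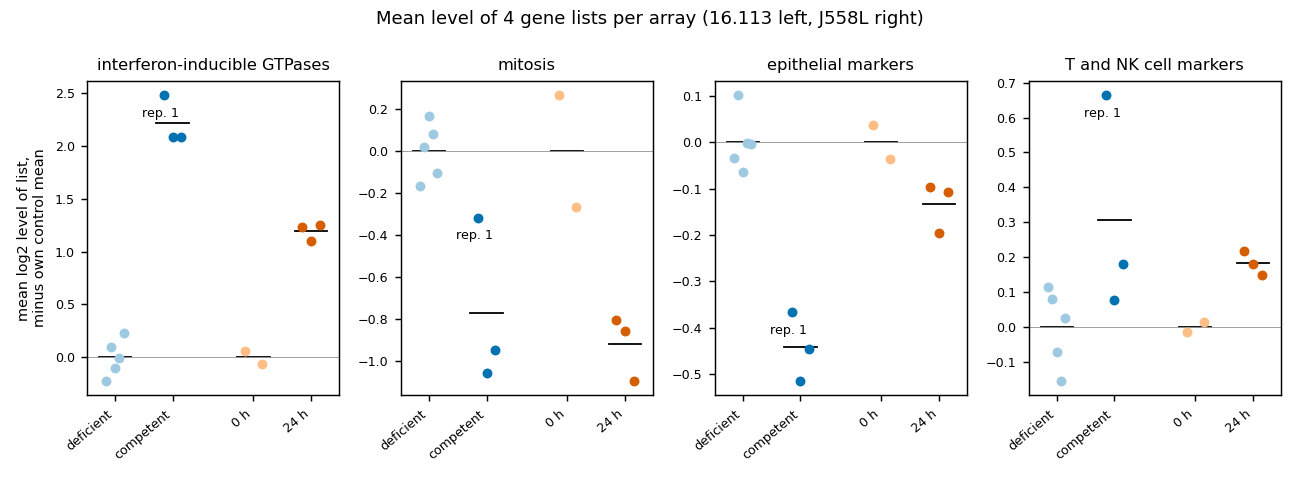
Mean log2 level of 4 gene lists on each array minus the mean of its own control group, coloured as in the plot of genes by array, with bars at group means. IFNγ-competent replicate 1 (rep. 1) is the highest of its group in all 4 lists, and epithelial markers are lower in all 3 competent than in all 5 deficient arrays. The means are not corrected for array level. For epithelial markers the lead of replicate 1 (5.20 against 5.05 and 5.12) is no larger than that of its array median (5.77 against 5.62 and 5.63).

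Matrix genes and stromal markers also had more differences below than above 0, as did all genes together (2259 of 4386 below 0, median -0.01). Of all genes 6.48% fell with T cells and 1.03% in J558L. Of 23 measured genes of basement membrane and matrix 5 fell with T cells and 1 in J558L, with a median difference of -0.32. Col18a1, the source of endostatin, fell in both arms, by 0.84 and 0.97. Of 19 fibroblast and pericyte markers 1 fell with T cells, about the share of all genes, and none passed in J558L. Their median difference was -0.40, with 16 of 19 below 0. The median T cell change of these 19 was -0.08. Their mean was 5.64 to 5.80 in the competent and 5.81 to 6.08 in the deficient arrays. The medians of these arrays were 5.62 to 5.77 and 5.72 to 5.79, and the part of array level in the list means was not tested. Myeloid markers had a median difference of 0.02.

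The T cell response was also set against the other release model, in which MCA313 tumours made IFNγ in mice whose receptor is limited to endothelial cells through Pdgfb-Cre (24 h, 2 arrays, minus 0 h, 3 arrays, from mice of 4 to 6 months). This comparison uses the same 16.113 arrays, so it does not test the J558L difference a second time. It called 1 gene (0.0228%), Ctla4, an inhibitory receptor of T cells, with a difference of -2.85 (-3.39 to -2.30, adjusted p = 1.27e-06). Ctla4 read 6.73 and 6.92 at 24 h against 3.86, 3.62 and 3.96 at 0 h in MCA313, and 3.90 to 4.44 on the 16.113 arrays. The count rose to 31 without IFNγ-competent replicate 1 and was 1 to 7 without any other array. Igtp changed by 1.28 in MCA313 and differed from the T cell change by 1.81 (0.82 to 2.80, adjusted p = 0.195). Igtp does not stand for its family here: the median change of the 7 GTPases was 1.71 in MCA313, against 2.03 with T cells and 1.11 in J558L. Their mean on the MCA313 0 h arrays ran from 7.47 to 9.31, so their change there is uncertain. In the MCA313 response, in which 1.32% of genes rose, Ifi205 rose by 4.01 and Irf4 by 3.63, with differences of -2.43 (-3.61 to -1.25) and -1.46 (-2.47 to -0.45). Nppc rose by 0.98 there, whereas the change of Tnfsf18, 0.93, did not pass.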

How the data were processed

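Endothelial cells from 26 tumour and kidney samples were profiled on Affymetrix arrays, and the 13 arrays of 4 groups carry the comparison. The authors deposited log2 expression values per probe set; the submitters' processing notes name Affymetrix Expression Console and limma, neither with a version. How values were normalized is not stated in these sources. Exact values recurred 421 to 2650 times between arrays of a set but 0 to 2 times between sets, so the MCA313, J558L tumour, J558L kidney and 16.113 arrays were taken as normalized separately and levels were not compared between sets.

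Left out were 766 probe sets that name several symbols and 10912 that name none, and all others were averaged per gene. A gene was kept if its brightest probe set was above the 50th percentile of an array on at least 2 arrays, which left 4386 of 5109, with a median of 10 probe sets each. Of the symbols 4618 were current in RefSeq, 494 were older names and 8 were unmatched. The difference is the T cell response minus the J558L response, fitted in limma 3.58.1 (R 4.3.3) with 9 group means over all 26 arrays, empirical Bayes variances and Benjamini-Hochberg adjustment at 0.05. The fit was also run on simulated data in which a gene had the same spread on every array. That run left out the unequal spread of the groups, so it does not test the fit under it. The number of arrays limits the precision.

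Genes named are those with the smallest p of the difference (10), up to 2 per gene list by size of the difference, the 6 largest rises and falls of each response, up to 10 changed in both, and 4 check genes. Further list members, Zup1, Alox15, Ctla4 and genes called without 1 array were named after their values were seen, as were the 4 promoters. The comparison, its gene lists and tests were chosen with earlier results of these data known. Alternatives covered probe-set summary, filter, scaling, variance prior, array weights, replicate block, own arrays and leaving out each array; centring on the median was added after seeing the data.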

Additional observations from a re-analysis of the deposited data

Results flagged for a closer look

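Among 77 genes followed in the 5 IFNγ-deficient arrays, 10 had 1 array far from the other 4 relative to the range of the group, where chance gives about 1 in 20. Values are log2 units. Replicate 1 stood apart for Man1a (9.09, others 8.62 to 8.70), Serpina3h (5.59, others 4.72 to 4.93), Nek2 (6.52, others 5.81 to 5.94) and Top2a (7.31, others 7.85 to 8.0). Replicate 2 stood apart for Slamf8 (6.12, others 5.52 to 5.67). Replicate 3 stood apart for Trappc10 (6.79, others 6.35 to 6.43) and the linker histone gene H1f1 (3.21, others 3.88 to 4.08). Replicate 4 stood apart for the fibronectin gene Fn1 (12.11, others 11.66 to 11.68), Rgs1 (3.42, others 4.54 to 4.91) and Ifi203 (7.05, others 8.40 to 8.93). The other groups of this comparison hold 2 or 3 arrays and were not examined in this way.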

How the results depend on the processing

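The count of 0 for the difference of responses became 2 with only the arrays of the groups compared, and 0 to 24 when 1 array was left out. The T cell count of 410 was 149 with array weights, 145 with its own arrays and 222 to 565 with 1 array left out. The J558L count of 93 was 24 with the brightest probe set, 53 with the median of probe sets, 279 with array weights, 173 with its own arrays and 9 to 51 with 1 array left out. Genes past the test in both numbered 15, 26 and 36 with the brightest probe set, the median of probe sets and the replicate block, and 6 to 58 with 1 array left out, against 59. The MCA313 difference called 3 with the brightest probe set and 2 each with the median of probe sets, the averaged filter, the robust variance prior and the own arrays, and 1 to 31 with 1 array left out. The causes were not tested.

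Replicate numbers showed no sign of pairing: the deviations of same-numbered arrays from their group means correlated at -0.07 to 0.01. In groups this small such values cannot exclude pairing. With the replicate block the counts were 0 for the difference, 286 for T cells, 72 for J558L and 1 for MCA313. Of 2057 values of the difference over 87 genes, 2042 kept direction and side, 12 came past the threshold and 3 reversed: Nppc (0.33) and Ifng (-0.54) with the brightest probe set and C130026I21Rik (0.48) with the median of probe sets. Among the genes named for the single responses, 8 of 341 T cell values and 63 of 240 J558L values lost their call.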
